A study of Mus musculus with 13 samples.

Results

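Adipokines are the proteins through which fat cells act on other tissues. The genes described here encode adiponectin (Adipoq), resistin (Retn), retinol-binding protein 4 (Rbp4), angiotensinogen (Agt), apelin (Apln), neuregulin 4 (Nrg4), meteorin-like (Metrnl) and members of the C1q/TNF family (C1qtnf1, C1qtnf2). Leptin, the most studied of these hormones, was left aside and is counted only in a list of other adipokine genes. The genes were taken by name: 9 were named, and 8 of the 11761 rows of the deposited expression table carried one of these names, each with a single row. C1qtnf1 is not analysed here. The names were chosen from the biology of fat and not from measured values, but with earlier results of these data known.

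Adiponectin is a collagen-like hormone that fat cells make in large amounts, and it raises insulin sensitivity in liver and muscle. Its level in blood is known to fall in obesity, whereas that of leptin rises. Resistin opposes insulin action in mice, angiotensinogen is cut into the peptides that constrict vessels, and apelin and neuregulin 4 act through receptors on vessels, heart and liver.

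RNA came from epididymal white fat of Adipoq-NuTRAP mice on the C57BL/6J background, fed either a high-fat diet (HFD) or chow for 10 weeks. Both diets share the transgenic label, in which the Adipoq promoter of the strain's name marks fat cells with a GFP tag on ribosomes, and Adipoq is itself one of the genes described. Ribosomes were pulled from tissue homogenate with an antibody against GFP, and the bound RNA was sequenced, with 3 HFD and 3 chow libraries. The chow held 6.4% fat by weight. The labels used here state neither the fat content of the HFD nor the age of the mice, nor whether each library came from its own animal. The p-values below therefore rest on library-to-library spread, part or all of which may be technical.

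The deposited values are on the log2 scale of CPM, read counts scaled to a common library size. The effective depth was 32000000 to 39400000 reads in the HFD libraries and 7430000 to 32400000 reads in the chow libraries. Chow replicate 3 was the shallowest: 117 genes there carried the table's floor value, a number that reached at most 7 in any other library. The label of the tissue was checked on 15 markers of fat cells, which summed to 22195 to 23984 CPM in HFD and 25976 to 38432 CPM in chow libraries. Markers of other cells were also present. Those of macrophages (15 genes) summed to 470 to 658 CPM in HFD against 154 to 175 CPM in chow, and those of endothelium (10 genes) to 157 to 302 CPM in HFD against 32.5 to 84.4 CPM in chow. None of these markers was at 0 in all libraries of a diet.

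With limma, 3 of the adipokine genes fell in HFD (Agt, Retn and Adipoq) and 1 rose (Metrnl), of 7 that could be tested. The test compared HFD with chow on log2(CPM + 1) for each gene that averaged 1 CPM or more, and a gene was called when its Benjamini-Hochberg adjusted p lay under 0.05. Among all 11643 genes tested 35.1% were called, 19.1% higher and 16.0% lower, and the count of 4 called among 7 genes is to be read against those shares. The median log2 fold change, HFD minus chow, was -0.21 over the 7 genes and -0.004 over all genes tested. For 5 of the 7 genes the HFD and chow values were fully separated, as they were for 50.2% of all genes. Since the libraries are bulk samples, fewer cells of a type and less RNA per cell cannot be told apart in any of these differences. Of the called genes 54.4% were higher in HFD with the authors' scaling, 65.4% with equal totals in each library and 88.9% with the median fat cell marker set equal.

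**Figure D1:**
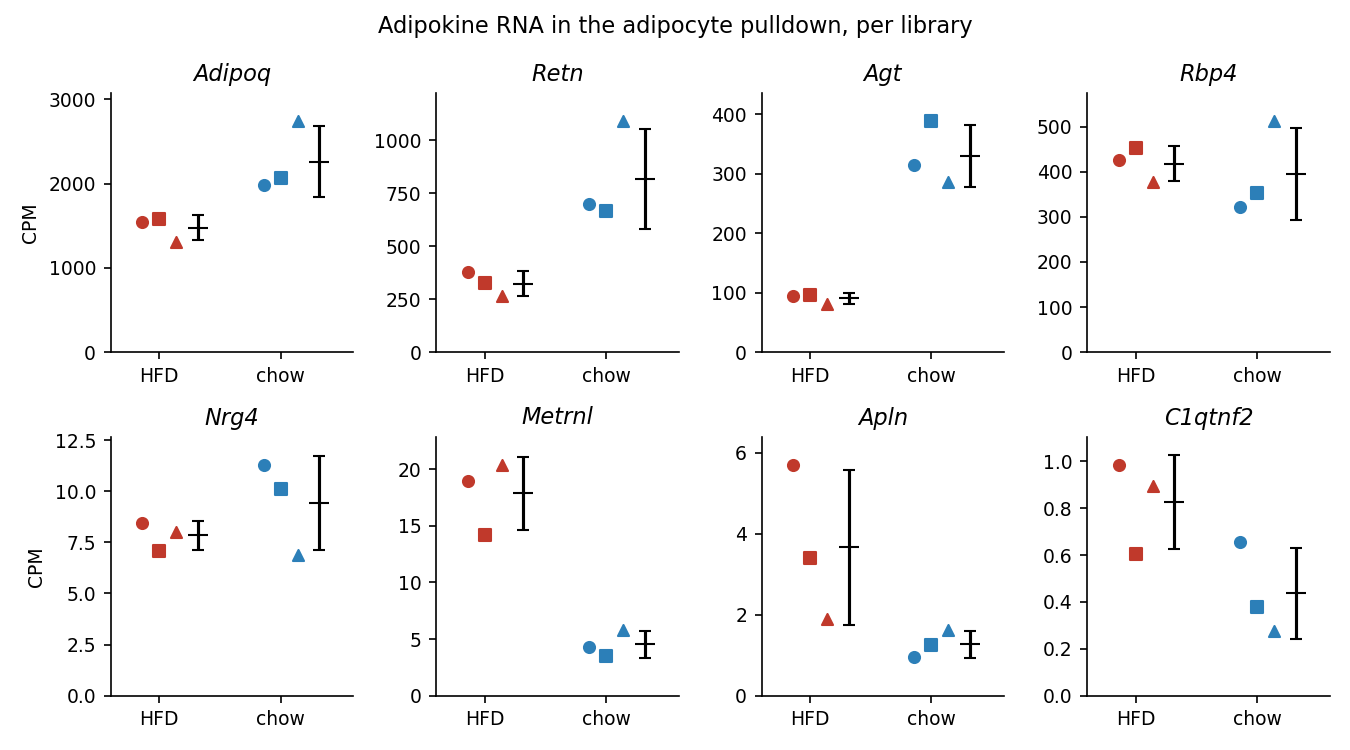
CPM of the 8 adipokine genes in each library (circle, replicate 1; square, replicate 2; triangle, replicate 3), HFD left and chow right of each panel, with the mean and SD of 3 libraries as black bars; every axis starts at 0. Adipoq, Retn and Agt lie lower in all HFD libraries, Metrnl and Apln higher, and the diets overlap for Rbp4, Nrg4 and C1qtnf2.

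Agt had the largest fall of these genes. Angiotensinogen is the protein from which renin releases angiotensin, and fat is a source of it beside the liver. Agt stood at 94.4, 96.3 and 80.4 CPM in HFD libraries, against 315, 388 and 286 CPM in chow libraries. The highest HFD library lay far below the lowest chow library, and the HFD libraries were close together. The means were 90.4 ± 8.66 CPM in HFD and 330 ± 52.5 CPM in chow (SD, n = 3 each), 3.65-fold lower in HFD. In limma the log2 fold change reached -1.85 (SE 0.15, adjusted p 3.38e-05), and it was past the threshold under all 17 alternative settings run, between -1.94 and -1.45. On GRCm38.p6, the assembly that mm10 denotes, Agt lies on chromosome 8 at 124556587 to 124569706.

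Retn also fell. Resistin is a small cysteine-rich hormone that in mice comes mainly from fat cells. Retn stood at 380, 326 and 263 CPM in HFD libraries, against 699, 666 and 1090 CPM in chow libraries. The diets did not overlap, and chow replicate 3 was well above the other chow libraries. The means were 323 ± 58.5 CPM in HFD and 819 ± 236 CPM in chow (SD, n = 3 each). Its log2 difference of -1.32 (SE 0.21, adjusted p 0.00145 by limma) was again past the threshold under all 17 alternatives (-1.45 to -0.92). Without chow replicate 3 it was -1.09. Retn lies on chromosome 8 at 3655770 to 3659818.

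Adipoq fell by less. It stood at 1541, 1585 and 1305 CPM in HFD libraries, against 1978, 2062 and 2740 CPM in chow libraries, without overlap. The means were 1477 ± 150 CPM in HFD and 2260 ± 418 CPM in chow (SD, n = 3 each), so HFD libraries held 0.654 times the chow level. On the log2 scale this was -0.60 (SE 0.18, 95% interval -1.0 to -0.21; adjusted p 0.0254 by limma). The call was lost without HFD replicate 1, 2 or 3 (limma adjusted p 0.0581, 0.0566 and 0.111) and with the median fat cell marker set equal between libraries (-0.20, adjusted p 0.275), and held without chow replicate 3 (-0.46, adjusted p 0.0337). Adipoq lies on chromosome 16 at 23146536 to 23157968.

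Metrnl was the one gene of the group that rose. Meteorin-like is a secreted factor of muscle, fat and macrophages, known in mice to act on immune cells of fat. Metrnl stood at 19.0, 14.2 and 20.4 CPM in HFD libraries, against 4.32, 3.46 and 5.82 CPM in chow libraries. Each HFD library was above every chow library, on 454 to 803 reads in HFD and 43 to 112 reads in chow. The means were 17.9 ± 3.24 CPM in HFD and 4.53 ± 1.19 CPM in chow (SD, n = 3 each), 3.95-fold higher in HFD. With limma the log2 difference came to 1.78 (SE 0.22, adjusted p 0.000388), past the threshold under all 17 alternatives (1.54 to 2.13). Of the 15 macrophage markers, 13 rose with it and 1 fell (median log2 fold change 1.76). The macrophage receptor Adgre1 stood at 44.0, 24.6 and 24.9 CPM in HFD libraries and 4.06, 3.10 and 3.51 CPM in chow libraries. The part of macrophages in the Metrnl difference was not tested. Metrnl lies on chromosome 11 at 121702427 to 121717389.

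The promoters of the 3 fallen genes held few CG dinucleotides, a count that was chosen after the sequences were seen. RefSeq promoter windows of GRCm38.p6, 250 bases before to 50 after each start, were matched for all 8 genes. The windows of the 3 fallen genes are shown with that of Metrnl, the gene that rose, as a contrast. Capitals mark CG dinucleotides and TATAAA, and each sequence runs 5′ to 3′ on the strand of its gene. The Adipoq window is chr16:23146286-23146585 (plus strand), that of Retn chr8:3655520-3655819 (plus), that of Agt chr8:124569657-124569956 (minus) and that of Metrnl chr11:121702177-121702476 (plus).
Adipoq: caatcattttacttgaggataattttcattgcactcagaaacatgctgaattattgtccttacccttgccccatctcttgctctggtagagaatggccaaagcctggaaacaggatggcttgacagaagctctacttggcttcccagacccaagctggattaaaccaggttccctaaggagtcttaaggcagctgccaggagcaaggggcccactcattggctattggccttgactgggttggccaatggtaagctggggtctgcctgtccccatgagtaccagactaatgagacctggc
Retn: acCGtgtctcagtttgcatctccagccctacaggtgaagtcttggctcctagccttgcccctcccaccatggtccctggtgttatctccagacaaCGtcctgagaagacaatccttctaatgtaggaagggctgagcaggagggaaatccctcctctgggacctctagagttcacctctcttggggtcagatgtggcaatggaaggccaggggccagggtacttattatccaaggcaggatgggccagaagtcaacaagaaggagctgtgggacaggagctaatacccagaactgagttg
Agt: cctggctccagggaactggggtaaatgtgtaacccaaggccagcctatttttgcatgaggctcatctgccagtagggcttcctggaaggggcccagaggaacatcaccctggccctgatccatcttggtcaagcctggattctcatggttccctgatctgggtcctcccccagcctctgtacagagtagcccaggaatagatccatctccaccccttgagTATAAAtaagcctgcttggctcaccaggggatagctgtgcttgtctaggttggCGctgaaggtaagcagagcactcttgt
Metrnl: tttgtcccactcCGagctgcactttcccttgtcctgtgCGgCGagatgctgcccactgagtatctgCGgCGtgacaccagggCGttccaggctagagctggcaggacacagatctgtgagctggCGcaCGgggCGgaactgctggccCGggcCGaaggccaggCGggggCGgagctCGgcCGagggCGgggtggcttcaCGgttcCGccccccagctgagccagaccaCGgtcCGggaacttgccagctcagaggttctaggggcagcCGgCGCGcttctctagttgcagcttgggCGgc

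These windows held 0 CG dinucleotides for Adipoq, 2 for Retn and 1 for Agt, against 24 for Metrnl. The remaining genes had 15 (Apln), 13 (Nrg4) and 18 (C1qtnf2), and Rbp4 had 40 and 5 in its 2 windows. Of all 32851 windows of the table, which include noncoding genes, 23.3% held 2 or fewer, and the median was 7. Over the genes tested, those 9069 with a window had a median of 21, and 3.19% of them held 2 or fewer, as did 2.82% of the genes called lower and 6.22% of those called higher. The CG count was chosen after the sequences were seen and rests on 3 genes, and only 78.3% of the tested genes had a window. The comparison is therefore void, and nothing is drawn from the low counts of the 3 fallen genes. The 4 motifs below were searched on both strands. TATAAA, found in 13.6% of all windows, stood in the Agt window at position -30 and in 1 Rbp4 window at -28. AGGTCA, the element that PPARG and its partner RXR bind in pairs (16.3% of all windows), was found only in Nrg4, at -90 and -26 on the opposite strand. TTGCNNAA, a C/EBP motif (10.8% of all windows), was found in Rbp4 at -128 and in Nrg4 at 40. CANNTG, the E-box (72.3% of all windows), was found once in Adipoq, Agt, Nrg4 and Metrnl, 2 times in Retn, 3 times in Apln, 4 times in C1qtnf2 and in 1 of the 2 Rbp4 windows. The TTGCNNAA and CANNTG matches of Nrg4 overlap. A match is a description of letters in the window and says nothing of binding. No chromatin values were analysed here, so the sequences stand beside the RNA values without a test.

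Apln was higher in every HFD library but missed the threshold. Apelin is a peptide ligand of the receptor Aplnr, and both fat cells and growing vessels make it. Apln stood at 5.70, 3.39 and 1.89 CPM in HFD libraries, against 0.959, 1.24 and 1.62 CPM in chow libraries. The lowest HFD library lay just above the highest chow library, and the HFD libraries spread over a wide range, with an SD of 52.4% of their mean. These levels rest on 192, 108 and 74 reads in HFD and on 22, 40 and 12 reads in chow. Its log2 difference of 0.96 (SE 0.34, 95% interval 0.20 to 1.72) had an adjusted p of 0.0524 by limma. It passed in 6 of 16 alternatives, among them scaling to equal totals (1.04, adjusted p 0.0422), and was 0.29 after quantile normalization and 0.66 without HFD replicate 1.

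Of the 10 endothelial markers, 7 had the same order as Apln among the HFD libraries, and Kdr, Vwf and Tek did not. Pecam1 stood at 43.1, 27.9 and 18.9 CPM in HFD replicates 1, 2 and 3, and Cdh5 at 44.9, 26.7 and 16.4 CPM. Vwf, which did not share the order, stood at 33.1, 11.6 and 32.4 CPM. In chow libraries Cdh5 stood at 8.28, 4.38 and 1.62 CPM, highest where Apln was lowest. By limma 9 of the 10 rose and 0 fell (median 1.78), and their part in the Apln values was not tested. Apln lies on chromosome X at 48025146 to 48034853.

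Rbp4 and Nrg4 were not called, and the diets overlapped for both. Rbp4 carries retinol in blood, and its level there is known to be raised in obesity and insulin resistance. Rbp4 stood at 425, 452 and 377 CPM in HFD libraries, against 322, 352 and 512 CPM in chow libraries. All HFD libraries were above chow replicates 1 and 2 and below chow replicate 3. The difference of 0.11 on the log2 scale (SE 0.18, 95% interval -0.30 to 0.51) had an adjusted p of 0.679 by limma. It was 0.31 without chow replicate 3 (adjusted p 0.0828) and 0.50 with the median fat cell marker set equal (adjusted p 0.0244), a setting in which the median of all genes was 0.372. Rbp4 lies on chromosome 19 at 38116620 to 38125321.

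Nrg4, an EGF-family ligand that signals from fat to liver, stood at 8.46, 7.06 and 8.0 CPM in HFD libraries, against 11.3, 10.1 and 6.87 CPM in chow libraries. Chow replicates 1 and 2 lay above all HFD libraries, and chow replicate 3, with 51 reads, lay below them. On the log2 scale the difference was -0.21 (SE 0.21, 95% interval -0.70 to 0.27; adjusted p 0.468 by limma), and -0.40 without that library (adjusted p 0.114). It was 0.14 with the median fat cell marker set equal. Nrg4 lies on chromosome 9 at 55220222 to 55283654, where its span overlaps that of Fbxo22, another listed gene. Reads of the 2 genes cannot be told apart by strand where exons overlap, since the kit named in the labels does not mark strand, and whether exons do overlap was not checked.

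C1qtnf2 was the gene with the fewest reads, and its mean over the 6 libraries lay under the filter. It stood at 0.986, 0.603 and 0.895 CPM in HFD libraries, against 0.655, 0.379 and 0.277 CPM in chow libraries. The diets overlapped by a single pair of libraries. These values rest on 33, 19 and 35 reads in HFD and on 15, 12 and 2 reads in chow. As 3 reads were worth 0.404 CPM in chow replicate 3, the level of C1qtnf2 there is very imprecise at this depth. In the fit without a filter its log2 difference was 0.35 (SE 0.27, adjusted p 0.348 by limma). C1qtnf2 lies on chromosome 11 at 43474306 to 43491525.

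**Figure D2:**
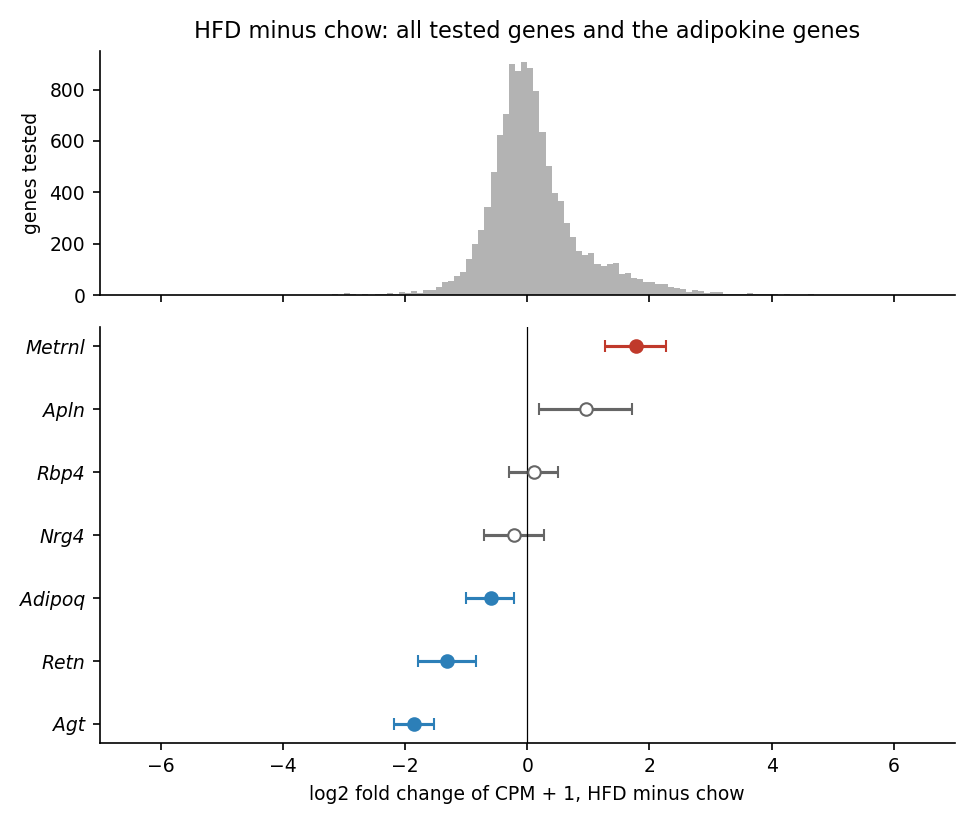
Log2 fold change of CPM + 1, HFD minus chow, for all 11643 genes tested (top, number of genes per bin of 0.1) and for the 7 tested adipokine genes (bottom, with 95% intervals from limma; filled, called; open, not called). Agt, Retn and Adipoq lie left of 0 and Metrnl right of it, and the intervals of Rbp4 and Nrg4 cross 0.

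Proportions among the adipokine genes also differed between HFD and chow libraries. A ratio of 2 genes in the same library is free of the scaling between libraries, and 6 such ratios were formed among Adipoq, Retn, Agt and Rbp4, a comparison chosen after the values were seen. With 3 libraries per diet an exact two-sided permutation test cannot give a p below 0.1, so no ratio could pass 0.05. The log2 ratio of Agt to Adipoq was -4.03, -4.04 and -4.02 in HFD libraries and -2.65, -2.41 and -3.26 in chow libraries. Agt thus stood in nearly the same ratio to Adipoq in each HFD library, while the chow libraries differed widely. The log2 ratio of Retn to Adipoq was -2.02, -2.28 and -2.31 in HFD libraries and -1.50, -1.63 and -1.33 in chow libraries, so relative to Adipoq it was lower in each HFD library than in any chow library.

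Rbp4 stood higher relative to Adipoq, with log2 ratios of -1.86, -1.81 and -1.79 in HFD libraries against -2.62, -2.55 and -2.42 in chow libraries, a difference of 0.71. The diets did not overlap for 5 of the 6 ratios, each with the smallest exact permutation p these libraries can give (0.1), which adjustment over the 6 ratios can only raise. The exception was Retn over Agt, which averaged 1.83 ± 0.16 in HFD and 1.29 ± 0.59 in chow (SD, n = 3 each; exact permutation p 0.3). The ratios share genes and are not independent, and Agt, Retn and Adipoq were already called lower. How many of all gene pairs separate the diets was not computed, and of single genes 50.2% did.

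**Figure D3:**
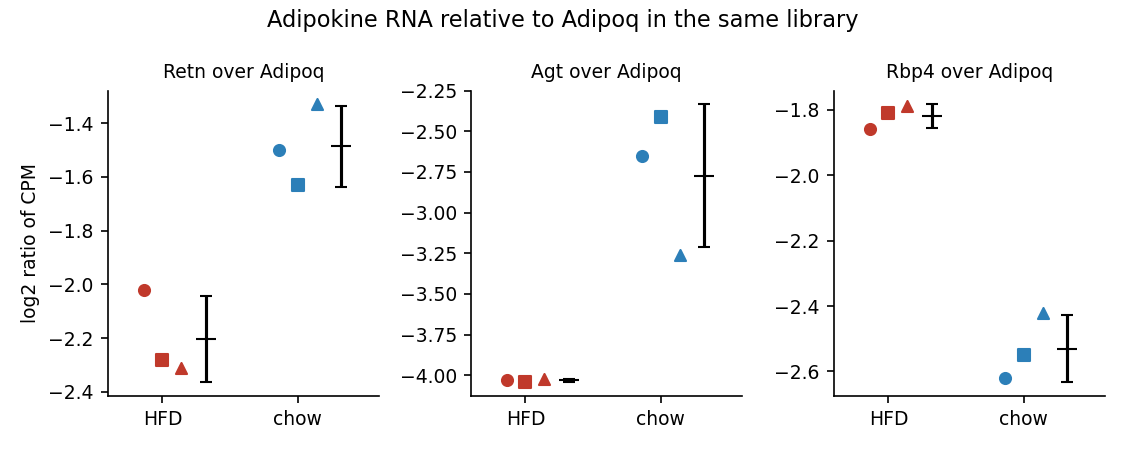
Log2 ratio of the CPM of Retn, Agt and Rbp4 to that of Adipoq in the same library, HFD left and chow right (circle, square and triangle for replicates 1, 2 and 3; black bars, mean and SD of 3 libraries). Retn and Agt are lower and Rbp4 higher relative to Adipoq in every HFD library than in any chow library; each panel has its own axis.

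The adipokine genes were also set against fat cell markers. The same value per library was subtracted from every gene. Apart from the pseudocount, the order of their differences was therefore fixed in advance and tests nothing. Against the median level of the 15 fat cell markers of the same library, Metrnl differed by 2.17 on the log2 scale, Apln by 1.59, C1qtnf2 by 1.16, Rbp4 by 0.28, Nrg4 by -0.06, Adipoq by -0.43, Retn by -1.15 and Agt by -1.69, HFD minus chow. These ratios differ from the setting with the median marker set equal, which used the median deviation of the markers and not their median level. The diets overlapped for Rbp4 and Nrg4 (exact permutation p 0.2 and 1), and for the other 6 genes they did not (exact p 0.1, the smallest possible). How many of all genes separate on such ratios was not computed, and on CPM 50.2% did. For C1qtnf2 the gap was narrow, with -11.05 in HFD replicate 2 against -11.1 in chow replicate 1. Its value in chow replicate 3 rests on 2 reads. The 15 markers themselves had 6 lower and 1 higher gene, with a median of -0.35. The lipid droplet lipase Pnpla2 averaged 639 ± 75.5 CPM in HFD and 1191 ± 185 CPM in chow, and the glycerol channel Aqp7 averaged 244 ± 8.69 CPM in HFD and 174 ± 23.9 CPM in chow (SD, n = 3 each).

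Together the 8 genes took 0.206 to 0.252% of the table's total in HFD libraries and 0.323 to 0.393% in chow libraries. Their summed level was 2475, 2485 and 2057 CPM in HFD libraries, against 3331, 3483 and 4643 CPM in chow libraries, without overlap. Adipoq alone made up 62.3 to 63.8% of that sum in HFD and 59.0 to 59.4% in chow. The sum without Adipoq averaged 862 ± 96.8 CPM in HFD and 1559 ± 300 CPM in chow (SD, n = 3 each). CPM values are not corrected for transcript length, so a share of reads is not a share of molecules, and the levels of different genes are not ranked here.

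Among other adipokine genes more members rose than fell. This list held 37 genes chosen from textbook knowledge with earlier results known, of which 24 were tested. Of these 14 rose, 4 fell and 6 were not called, against 19.1% higher and 16% lower among all genes. The leptin gene Lep is in this list and is counted among the 14 that rose. The median log2 fold change was 0.78 against -0.004 for all genes. The chemokine Ccl2 averaged 38.6 ± 17.8 CPM in HFD and 0.699 ± 0.017 CPM in chow, and the Wnt-binding protein Sfrp5 398 ± 45.9 CPM in HFD and 23.1 ± 7.89 CPM in chow (SD, n = 3 each). Among the 4 fallen genes were adipsin (Cfd), with 476 ± 147 CPM in HFD and 4020 ± 1513 CPM in chow, and Ccdc80, a secreted matrix protein of fat, with 1790 ± 199 CPM in HFD and 3653 ± 664 CPM in chow.

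The C1q/TNF relatives, which share the globular fold of adiponectin, mostly rose. Of 12 genes 8 were tested, 5 rose, 1 fell and 2 were not called (median 1.47). Among all genes tested 19.1% were called higher and 16% lower. C1qtnf6 stood at 6.06, 5.78 and 8.51 CPM in HFD libraries and 0.829, 0.595 and 0.547 CPM in chow libraries. This came to 2.22 on the log2 scale (SE 0.25, adjusted p 0.000228 by limma). C1qtnf9, the closest relative of Adipoq in this list, stood at 12.6, 7.26 and 4.92 CPM in HFD libraries and 1.6, 0.966 and 1.36 CPM in chow libraries, with a log2 fold change of 1.93 (SE 0.32, limma adjusted p 0.00175). Its HFD libraries have the order of Pecam1 and Cdh5, and the part of endothelial cells was not tested. Fam132a, which encodes the insulin-sensitising factor adipolin, fell like Adipoq, with 63.5 ± 6.57 CPM in HFD and 111 ± 6.52 CPM in chow (SD, n = 3 each); its call was lost with the median fat cell marker set equal (-0.40, limma adjusted p 0.0858).

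Genes listed as receptors for these hormones rose more often than they fell, and the adiponectin receptors of metabolic cells were not among those that rose. Of 17 listed genes 10 were tested, 6 rose, 2 fell and 2 were not called (median 0.76), beside 19.1% higher and 16% lower among all genes. The counts include Lifr, which was called higher, and Il6st, which was not called. The link of Lifr and Il6st to these hormones was not checked. Adipor1 averaged 171 ± 11.3 CPM in HFD and 224 ± 28.8 CPM in chow (log2 fold change -0.38, SE 0.13, limma adjusted p 0.049), a call lost in 12 alternatives, the value being 0.02 with the median fat cell marker set equal. Adipor2 averaged 1114 ± 65.7 CPM in HFD and 1387 ± 49.0 CPM in chow (-0.32, limma adjusted p 0.0932), and was at 0.08 in that setting. Cdh13, which binds adiponectin oligomers on vessel walls, stood at 10.3, 8.63 and 4.47 CPM in HFD libraries and 2.58, 1.18 and 0.277 CPM in chow libraries (1.97, SE 0.41, limma adjusted p 0.00567). Aplnr, the apelin receptor, stood at 8.75, 4.2 and 3.56 CPM in HFD libraries; in chow replicates 1 and 2 it stood at 1.91 and 1.09 CPM and in chow replicate 3 it had 0 reads. The difference of 1.75 (SE 0.44, adjusted p 0.0128 by limma) rested on few reads, and its call was lost on the deposited log2 values (adjusted p 0.0866) and without HFD replicate 1 (0.0523). Both genes are known from endothelium and were highest in HFD replicate 1, as the endothelial markers were. The part of endothelial cells in the Cdh13 and Aplnr differences was not tested.

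Enzymes that act on angiotensin and apelin peptides rose in 3 of 8 tested genes and fell in 0, and 5 were not called. The median was 0.18, and a count of 3 called in 8 is near the 35.1% called among all genes. Anpep, an aminopeptidase that trims angiotensins and that macrophages and progenitors also carry, averaged 14.0 ± 4.40 CPM in HFD and 1.49 ± 0.726 CPM in chow (SD, n = 3 each; log2 fold change 2.59, limma adjusted p 0.000221). Prcp, a lysosomal carboxypeptidase of angiotensin, averaged 12.8 ± 0.912 CPM in HFD and 3.21 ± 0.485 CPM in chow. The third was Ace, the angiotensin-converting enzyme, named after its values were seen, with 27 ± 3.16 CPM in HFD and 10.8 ± 2.98 CPM in chow (log2 fold change 1.27, limma adjusted p 0.00149). The receptor Agtr1a, also named after its values were seen, had 71, 71 and 65 reads in HFD libraries and 19, 6 and 0 reads in chow libraries. It was called higher (adjusted p 0.0194 by limma), but not without chow replicate 2 (0.0596), on the deposited log2 values (0.0804) or after quantile normalization (0.149). The aminopeptidase and angiotensin IV receptor Lnpep, counted with the receptors, fell, with 522 ± 30.7 CPM in HFD and 781 ± 64.8 CPM in chow (SD, n = 3 each), but not with the median fat cell marker set equal (-0.18, limma adjusted p 0.313). The renin gene Ren1 is not analysed here.

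**Figure D4:**
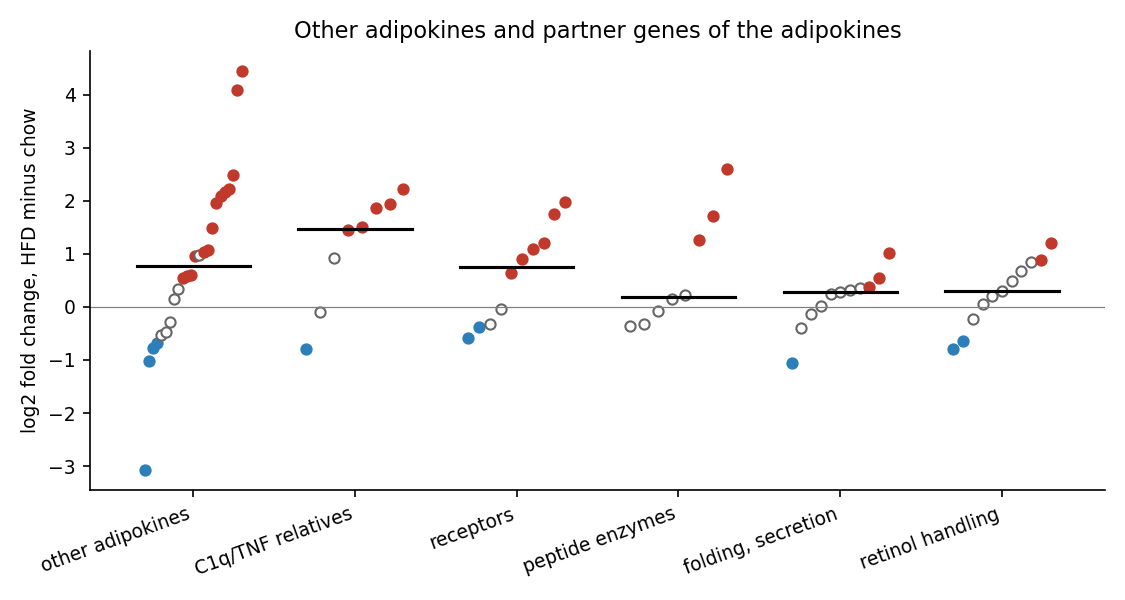
Log2 fold change of CPM + 1, HFD minus chow, for each tested gene of 6 lists (filled red, called higher; filled blue, called lower; open, not called; black line, median of the list). Most points of the C1q/TNF relatives and of the receptors lie above 0, and the folding and retinol lists centre near 0.3.

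Among 11 tested genes listed for the folding and release of adiponectin, 3 rose, 1 fell and 7 were not called (median 0.29). The share called is near the 35.1% called among all genes. Erp44, the chaperone that holds back unassembled adiponectin, averaged 48.7 ± 4.76 CPM in HFD and 39.6 ± 4.22 CPM in chow (log2 fold change 0.29, SE 0.14, limma adjusted p 0.141). Plod1, a lysyl hydroxylase of collagen-like chains, averaged 178 ± 15.5 CPM in HFD and 87.4 ± 10.2 CPM in chow, and the chaperone Hspa5 726 ± 94.0 CPM in HFD and 501 ± 63.4 CPM in chow (SD, n = 3 each). Hspa5 lost its call without HFD replicate 2, HFD replicate 3 or chow replicate 1. Sumf2 was the gene of this list that fell, with 45.3 ± 3.22 CPM in HFD and 96.7 ± 18.5 CPM in chow, and its link to adiponectin was not checked.

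Genes of retinol handling, the pathway of the Rbp4 cargo, went both ways: of 11 tested 2 rose, 2 fell and 7 were not called (median 0.30). Here too the share called is near the 35.1% of all genes. The retinoic acid receptor Rara averaged 23.1 ± 2.45 CPM in HFD and 9.69 ± 2.68 CPM in chow (log2 fold change 1.20, limma adjusted p 0.00237). Cyp26b1, which degrades retinoic acid, was called at 1.74 ± 0.492 CPM in HFD and 0.482 ± 0.210 CPM in chow (limma adjusted p 0.0481), and lost the call in 8 alternatives. The retinol dehydrogenase Rdh10 fell, with 14.5 ± 1.35 CPM in HFD and 26.4 ± 7.04 CPM in chow, as did Rxra, the partner receptor of PPARG, with 296 ± 17.8 CPM in HFD and 462 ± 49.0 CPM in chow (SD, n = 3 each). Neither fall was called with the median fat cell marker set equal.

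Of the transcription factors known to drive Adipoq and Retn, Cebpa averaged 880 ± 89.7 CPM in HFD and 1537 ± 394 CPM in chow, and Pparg 231 ± 33.0 CPM in HFD and 232 ± 74.5 CPM in chow (SD, n = 3 each). Cebpa fell (limma adjusted p 0.0116; with the median fat cell marker set equal -0.38, adjusted p 0.0674) and Pparg was not called (log2 fold change 0.04, adjusted p 0.915). The genes whose levels followed each called adipokine gene most closely over the 6 libraries were found by Pearson's r on log2(CPM + 1) among 8728 genes that averaged 10 CPM or more. These were Gpx4 and Mpnd for Adipoq (both r = 0.9983), Klhl21 and Mcm4 for Retn (0.9980 and 0.9979), Taf5l and Bclaf1 for Agt (0.9975 and 0.9974), and the collagen VI chains Col6a2 and Col6a1 for Metrnl (0.9984 and 0.9981). With 2 diets and 6 libraries such values are common: between 293 and 466 genes had an r over 0.95 with each of the 4. Beside the collagen genes, 12 markers of fibroblasts and progenitors summed to 2416 to 4172 CPM in HFD libraries and 2329 to 3683 CPM in chow libraries, and 6 of them rose and 1 fell. Their part in the Metrnl values was not tested.

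**Figure D5:**
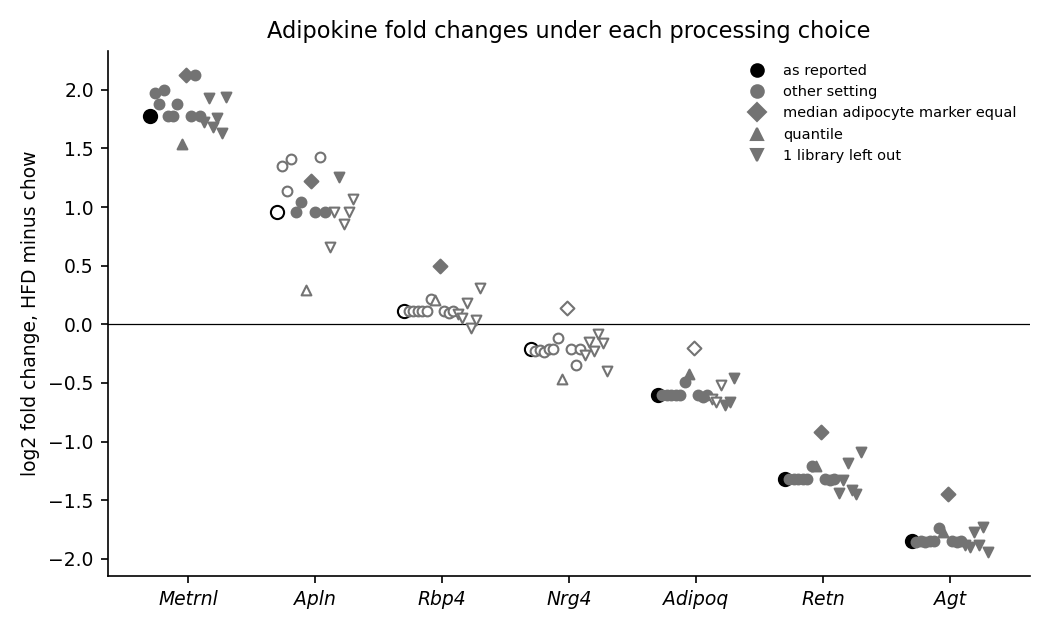
Log2 fold change, HFD minus chow, of the 7 tested adipokine genes as reported (black) and under each alternative setting (grey; diamonds, median fat cell marker set equal; triangles, quantile normalization; inverted triangles, 1 library left out); filled symbols have a limma adjusted p under 0.05. Metrnl, Retn and Agt are filled throughout, while Adipoq and Apln change between filled and open.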

How the data were processed

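The series holds 13 samples; the 6 RNA libraries were used, and the 7 chromatin samples were not analysed here. The deposited values are log2 CPM per gene, 1 column per library, made by the authors from an effective library size. HISAT2, Picard, featureCounts and edgeR are named, with mm10, in the submitters' processing notes, without roles or versions. No source used here states the authors' filter on low genes. The log base was taken from the numbers themselves, which reach down to -6.85. Depth per library was read from the spacing of low values: all values under 20 reads came out whole within 0.1 of a read.

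Values were turned back into CPM, and log2(CPM + 1) was compared by limma (version 3.58.1, R 4.3.3, moderated by eBayes, trend on, two-sided). The fit was also run on data simulated under its own assumptions, which cannot show whether it suits these libraries. Fold changes on this scale understate those of low genes. Of 11761 rows, 11643 with a mean of at least 1 CPM were tested, with adjustment over all. Where rows share a symbol, as for Lnpep, the row with the highest mean was used. Named genes were the adipokine genes, up to 2 risen and 2 fallen genes with the largest change per list, the genes most like each called one, and 6 fixed genes. Lists of markers whose genes are not named gave these calls: fibroblast and progenitor, 6 higher and 1 lower of 12; smooth muscle, 8 higher of 8; mesothelial, 3 higher of 8; lymphocyte, 0 of 1. Members, lists and tests were chosen with earlier results of these data known. No unmapped column was present. Intervals and limits from reads cover counting error only. Alternatives changed the pseudocount, filter, scaling, weights and libraries.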

Additional observations from a re-analysis of the deposited data

How the results depend on the processing

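Agt, Retn and Metrnl kept their direction and call under all 17 alternatives. Leaving out 1 library gave -0.69 to -0.46 for Adipoq, -0.03 to 0.31 for Rbp4 (-0.03 without chow replicate 1), 0.66 to 1.26 for Apln and -0.40 to -0.08 for Nrg4. With the median fat cell marker set equal, Adipoq was at -0.20 (not called), Rbp4 at 0.50 and Apln at 1.22 (both called) and Nrg4 at 0.14; Adipor1 was then at 0.02 and Adipor2 at 0.08. Pparg was at -0.02, -0.03 and -0.21 without HFD replicate 1, HFD replicate 2 and chow replicate 1, the highest of its values with 1 library left out being 0.26. Apln also passed with no filter (0.96), equal totals (1.04), limma without a trend (0.96), the replicate block (0.96) and without HFD replicate 3. Of the other named genes, 50 values lost a call in the same direction, 1 more (Adipor1 at 0.02, above) lost it with a change of sign, and 1 gained a call. Counts of called genes were 4144 higher and 517 lower with the median marker set equal, which moved the median of all genes to 0.372; with 1 library left out they were 1683 to 2102 higher and 1162 to 1740 lower, with 1162 lower without HFD replicate 3. The cause of these changes was not tested. The summed level of the adipokine genes differed by -1480 CPM, HFD minus chow, and by -697 CPM without Adipoq. C1qtnf2 was at 0.98 (limma adjusted p 0.378) with no filter on the deposited log2 values, a setting chosen after seeing the data.

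Replicate numbers are shared between diets, and these values do not settle whether they pair the libraries. Deviations of same-numbered libraries correlated at 0.433, 0.232 and 0.086 (across genes). Each HFD library correlated best with the chow library of its own number. Chow replicate 3 correlated better with HFD replicate 2 (0.15) than with HFD replicate 3 (0.086). The main fit did not use the replicate numbers. With the replicate block 2594 genes were higher and 2245 lower, and among the adipokine genes only Apln changed its call (adjusted p 0.0481). Depth limits the values of chow replicate 3, where Apln had 12 reads, C1qtnf6 had 4, C1qtnf2, Cdh13 and Cyp26b1 had 2 each, and Aplnr and Agtr1a had 0.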
